A study of Mus musculus with 8 samples.

Results

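Glutathione S-transferases join the thiol glutathione to reactive, mostly electrophilic molecules, which the cell then exports and breaks down. The cytosolic enzymes fall into classes named by Greek letters, the kappa class lies in mitochondria and peroxisomes, and the membrane-bound MAPEG proteins include the microsomal transferases and several enzymes of leukotriene and prostaglandin synthesis. Many of the genes are known targets of the transcription factor NRF2, which binds antioxidant response elements, and macrophages use glutathione during oxidative and inflammatory stress.

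The genes described here are Gsta3, Gsta4, Gstm1, Gstm2, Gstp1, Gsto1, Gstk1, Gstt1, Mgst1 and Mgst2, 10 of the 50615 genes in the table. They were chosen by name with the fold changes of all comparisons below already known, so their levels and fold changes are a description and carry no p-value. All 10 had a row, and all 10 passed the filter of at least 10 counts summed over the 8 libraries, which 17625 genes passed.

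RNA came from bone marrow-derived macrophages (BMDMs), which are bone marrow cells of C57BL/6 mice grown into macrophages over 6 days in M-CSF (20 ng/ml). The Ncoa6-sufficient mice (WT in the labels, Ncoa6 fl/fl) carried the floxed Ncoa6 alleles without Cre, and the Ncoa6-KO mice (Ncoa6 fl/fl LysM CRE) carried the same alleles with Cre under the lysozyme M locus, so all groups shared the floxed alleles and the deletion was limited to cells in which that myeloid locus is active. For both genotypes, cells either stayed in medium or received LPS (100 ng/ml, 4 h) followed by monosodium urate (MSU) crystals (200 µg/ml, 2 h). This gave 4 groups of 2 libraries, which came from different mice. The age of the mice is not given in the sources used here, and whether same-numbered libraries of the 2 culture conditions shared a mouse is not stated.

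The libraries held between 25281955 and 33673552 expected counts. Ncoa6 itself was at 622 and 784 normalized counts in the Ncoa6-KO libraries with medium against 1405 and 1515 in the Ncoa6-sufficient ones. Its count over the whole gene was 48.2% of the Ncoa6-sufficient one with medium and 44.1% with LPS + MSU. The paper places the loxP sites around exon 7, so reads from other exons can remain. These percentages therefore do not measure how much intact Ncoa6 RNA was left, which the paper reports as markedly reduced by qPCR. A normalized count is a count scaled to a mean effective library of 29332189. All 7 macrophage markers (Adgre1, Csf1r, Cd68, Mertk, Lyz2, Itgam, Fcgr1) were detected, but their summed level was lower in Ncoa6-KO BMDMs, at 244996 to 282774 normalized counts against 381606 to 447516 with medium and at 324117 to 346193 against 461967 to 530409 with LPS + MSU. Much of this sum was Lyz2, the locus that carries Cre, so the sum largely follows that gene. Lyz2 was at 111994 and 127555 normalized counts against 209893 and 272098 with medium, and at 123265 and 129385 against 217335 and 270329 with LPS + MSU. The median log2 fold change of the 7 markers was -0.36 with medium and -0.50 with LPS + MSU. Of the 7 markers, 2 were called lower in Ncoa6-KO BMDMs with medium and 3 with LPS + MSU (edgeR, adjusted p under 0.05), and none higher. Summed markers of endothelial cells with medium, and of stromal and B cells with LPS + MSU, did not overlap between the genotypes. The other sums of these cell types overlapped. No stromal or B cell marker was called in either knockout comparison, and 1 endothelial marker was called higher with LPS + MSU (edgeR, adjusted p under 0.05). With medium their summed levels in Ncoa6-KO against Ncoa6-sufficient BMDMs were 142.5 to 471 against 391 to 436 for stromal cells, 4306 to 5562 against 3437 to 3936 for endothelial cells and 30.7 to 38.2 against 33.5 to 50.3 for B cells. With LPS + MSU they were 353 to 841 against 917 to 967, 6461 to 8635 against 8045 to 9206, and 7.00 to 10.5 against 26.3 to 31.7. Neutrophil markers overlapped in both conditions, at 360.1 to 887, and those of mast cells and basophils and of eosinophils stayed at 9.70 or below, with Mcpt4, Fcer1a, Prg3, Ear1 and Emcn at 0 in every library. The part of these differences in the values of the glutathione transferases was not tested, and in bulk RNA fewer cells of a type and less RNA per cell cannot be told apart. An effect of the Cre insertion on Lyz2 was not tested either.

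Since several of the genes are described as NRF2 targets, their promoters were searched for the core of the antioxidant response element, TGACNNNGC, on both strands of the 250 bases before the start site. RefSeq promoters on GRCm38.p6 were found for 9 of the 10 genes, all but Gsta4. These genes had 11 promoters, as Gstm1 and Mgst1 had 2 each. The core was present in 2 of these 9 genes, Gsta3 and Mgst1, and in 11.5% of the 27025 genes with a promoter in the same reference. In Mgst1 it lay in the promoter at chr6:138140277-138140526 and not in the other, and neither promoter of Gstm1 held it. The sequence of Gsta3 is shown because this gene had the largest difference between genotypes among the 9 genes with more than a few counts, that of Gstm1 because it was the most abundant of the 10 genes and held no match in this window, and the short stretch of Mgst1 for its match. Capitals mark the core, which begins 121 bases before the start site in Gsta3 and 56 bases before it, on the other strand, in Mgst1.
Gsta3, chr1:21240335-21240584, + strand: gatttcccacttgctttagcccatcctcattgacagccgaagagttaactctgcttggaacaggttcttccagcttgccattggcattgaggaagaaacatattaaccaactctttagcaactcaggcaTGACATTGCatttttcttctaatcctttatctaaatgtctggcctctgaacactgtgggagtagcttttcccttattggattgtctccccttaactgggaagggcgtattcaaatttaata
Gstm1, chr3:108017974-108018223, - strand: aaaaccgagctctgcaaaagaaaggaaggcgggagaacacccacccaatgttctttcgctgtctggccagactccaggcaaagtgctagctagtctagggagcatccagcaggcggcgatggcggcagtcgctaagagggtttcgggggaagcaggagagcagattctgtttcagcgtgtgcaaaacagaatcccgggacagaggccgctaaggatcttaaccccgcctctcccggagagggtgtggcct
Mgst1, chr6:138140461-138140489, + strand: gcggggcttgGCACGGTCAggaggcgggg

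The AP-1 site, TGANTCA, whose letters are partly alike, was present in Gstp1 and Mgst2, and in 7.82% of the genes with a promoter. None of the antioxidant response element cores in Gsta3 and Mgst1 overlapped such a site. Capitals mark the AP-1 letters below, which begin 74 bases before the start site of Gstp1 and 52 bases before that of Mgst2. In Gstp1 the AP-1 letters are followed by GC, so this stretch differs from the searched core in a single base, G in place of C. The search did not allow that form, so a gene without the core as written may still hold a related site. These matches are letters in a short window and were not tested for binding.
Gstp1, chr19:4037970-4037996, - strand: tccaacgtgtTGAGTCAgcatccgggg
Mgst2, chr3:51661117-51661143, + strand: ccaatcctgtTGACTCAactctgttgc

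Per length, Gstm1 was the most abundant of the 10 genes in every group. With medium in Ncoa6-sufficient BMDMs it stood at 1835 ± 13.8 normalized counts per kb of exon (mean ± SD, n = 2), followed by Gsto1 at 761 ± 34 and Mgst1 at 717 ± 101, which did not differ beyond their spread. Gstk1 at 87.2 ± 4.16 and Gstp1 at 78.9 ± 12.5 formed the next, overlapping pair, although with the longest transcript as length their means were 148.8 and 91.8 in the order Gstp1, Gstk1, with Gsta3 at 87.1. Gsta3 followed at 56.0 ± 7.35, then Gstm2 at 34.3 ± 3.64, Mgst2 at 20.7 ± 5.21, Gstt1 at 7.31 ± 0.780 and Gsta4 at 0.976 ± 0.542. In Ncoa6-KO BMDMs with medium, Gsta3 was at 206 ± 69.4 per kb, above the means of Gstp1 at 131 ± 16.9 and Gstk1 at 102 ± 0.666, although its spread between the libraries was wide. With LPS + MSU, Gstt1 reached 47.0 ± 6.59 per kb in Ncoa6-sufficient BMDMs and 43.1 ± 6.45 in Ncoa6-KO BMDMs. Gstm1 held 33.4% of the summed level per length of the 26 Gst and Mgst genes in Ncoa6-sufficient BMDMs with medium and 40.5% with LPS + MSU in Ncoa6-KO BMDMs. Of the genes outside the list, Mgst3 was the most abundant, at 1437 ± 126 per kb in Ncoa6-sufficient BMDMs with medium.

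**Figure D1:**
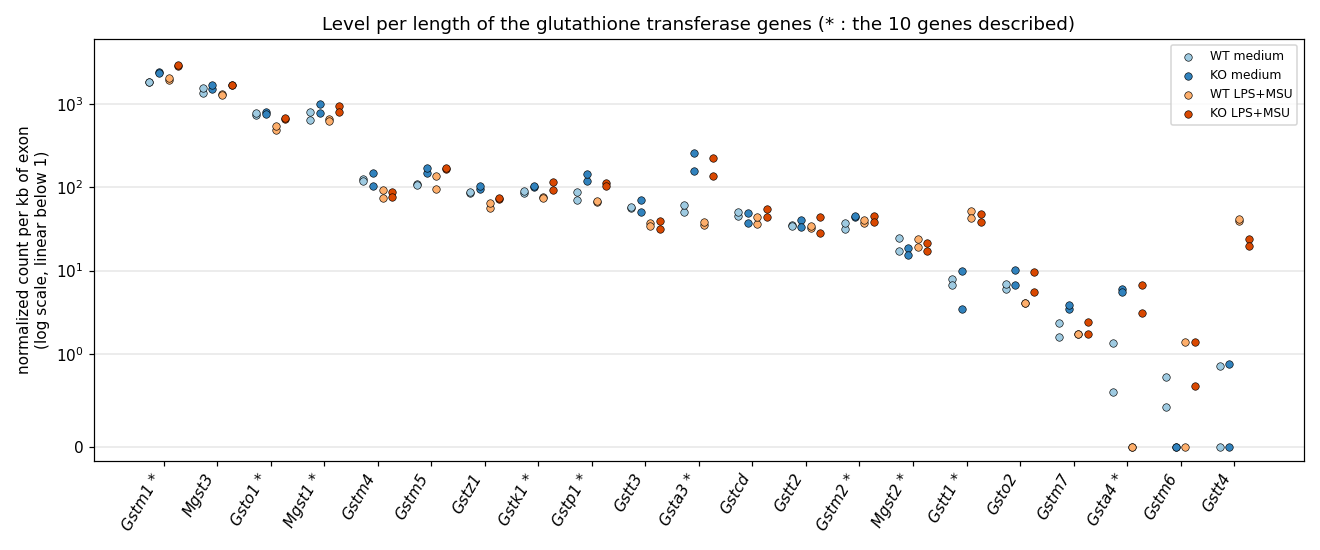
Normalized counts per kb of exon (vertical axis, log scale that is linear below 1) of the Gst and Mgst genes with a count in at least 2 libraries, ordered by their mean in Ncoa6-sufficient BMDMs with medium. Each point is a library and the colours give the 4 groups. Gstm1 was highest in every group, and Gsta3 in the Ncoa6-KO libraries lay above its Ncoa6-sufficient level in both culture conditions.

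The first question was how these genes differed between the genotypes with medium alone and with LPS + MSU. Just the Ncoa6-KO mice carried Cre, so loss of Ncoa6 and presence of Cre cannot be told apart. Gsta3 stood out: its level was several times higher in Ncoa6-KO BMDMs in both culture conditions. Gstp1, Gstm1 and Gstk1 were higher by less, without overlap of the genotypes in either condition, Gsto1 and Mgst1 overlapped with medium but not with LPS + MSU, and Gstt1 and Mgst2 overlapped between the genotypes in both conditions.

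The alpha class is known from liver, where Gsta3 conjugates aflatoxin epoxide in mice and Gsta4 conjugates the lipid peroxidation product 4-hydroxynonenal. Gsta3 lies on chromosome 1, at 21240589 to 21265661 on the + strand of GRCm38, and overlaps Gm28836 on the other strand. With medium it was at 221 and 266 normalized counts in the Ncoa6-sufficient libraries and at 683 and 1110 in the Ncoa6-KO libraries. With LPS + MSU it was at 151 and 168 against 593 and 971. The groups did not overlap, and in both culture conditions the second Ncoa6-KO library was above the first. The log2 fold change of Ncoa6-KO over Ncoa6-sufficient was 1.88 ± 0.25 (SE) with medium, or 3.68-fold, and 2.29 ± 0.28 with LPS + MSU, or 4.89-fold. Without the first Ncoa6-sufficient library with medium the former was 1.75 ± 0.34 and no longer among the calls.

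Gsta4, on chromosome 9 (78182774 to 78209349, + strand), was near the limit of detection. It had 11 and 8 expected counts in the Ncoa6-KO libraries with medium against 1 and 2 in the Ncoa6-sufficient libraries, a ratio of 6.13 after scaling (95% interval 1.80 to 32.3, exact binomial, counting error only). With LPS + MSU it had 3 and 6 counts against 0 and 0, which is at least 1.49-fold higher when a floor of 3 counts is set for each Ncoa6-sufficient library. Between culture conditions it went from 1 and 2 counts to 0 and 0 in Ncoa6-sufficient BMDMs and from 11 and 8 to 3 and 6 in Ncoa6-KO BMDMs, where the normalized counts overlapped. These are few molecules, and the interval does not cover the spread between mice.

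The mu class genes lie side by side on chromosome 3, Gstm1 at 108012255 to 108017973 and Gstm2 at 107981702 to 107986453, both on the - strand. Gstm1 is a main cytosolic transferase of the mouse. It was at 2718 and 2689 normalized counts with medium in Ncoa6-sufficient BMDMs and at 3564 and 3427 in Ncoa6-KO BMDMs, and with LPS + MSU at 2853 and 3023 against 4124 and 4288. In both conditions each Ncoa6-KO library was above both Ncoa6-sufficient libraries, with tight replicates. The log2 fold changes were 0.37 ± 0.09 and 0.52 ± 0.09. The second, which was among the calls, was 0.47 ± 0.11 and not called without the first Ncoa6-sufficient library with LPS + MSU, and 0.49 ± 0.11 and not called without the second Ncoa6-KO library. Of the 100-base windows of its transcripts, 5.86% also occurred in transcripts of other genes, the pseudogenes Gstm2-ps1 and Gm8834 and the paralog Gstm3.

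Gstm2 was at 53.3 and 61.9 normalized counts against 74.4 and 76.4 with medium, where the genotypes did not overlap, and at 62.3 and 67.5 against 75.8 and 64.4 with LPS + MSU, where they did. Its log2 fold changes were 0.39 ± 0.21 and 0.11 ± 0.23. The summed counts of the 7 Gstm genes, 88.7% of which were Gstm1, gave 0.36 ± 0.09 with medium and 0.49 ± 0.09 with LPS + MSU, close to Gstm1 itself.

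The pi class enzyme Gstp1, which also binds the stress kinase JNK, was the next largest of the genotype differences after the alpha class. The gene lies on chromosome 19, at 4035407 to 4037985 on the - strand. With medium it was at 108 and 136 normalized counts against 185 and 222, and with LPS + MSU at 103 and 106 against 175 and 159. Every Ncoa6-KO library was above every Ncoa6-sufficient library of the same condition. The log2 fold changes were 0.74 ± 0.17 and 0.68 ± 0.19, or 1.67-fold and 1.60-fold. Of its 100-base windows, 25.1% also occurred in Gstp2 or the pseudogene Gstp-ps, its expected counts were fractional in 4 of 8 libraries, and Gstp2 was at 0 in every library, so the split of reads within this cluster is uncertain. The sum over Gstp1, Gstp2 and Gstp3 gave 0.74 ± 0.17 and 0.69 ± 0.19.

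The omega class enzyme Gsto1 reduces dehydroascorbate and methylated arsenic and has been linked to release of IL-1β. It lies on chromosome 19 at 47854970 to 47864790 on the + strand, where Cfap43 overlaps it on the other strand. With medium its levels were 1491 and 1588 normalized counts against 1606 and 1534, and the genotypes overlapped, with a log2 fold change of 0.03 ± 0.09. With LPS + MSU they were 986 and 1106 against 1332 and 1370, without overlap, and the log2 fold change was 0.37 ± 0.09. Gstk1, the kappa class gene on chromosome 6 (42245935 to 42250447, + strand), was at 124 and 132 against 149 and 150 with medium and at 111 and 110 against 135 and 171 with LPS + MSU. Its log2 fold changes were 0.22 ± 0.16 and 0.46 ± 0.18, the second with a wide gap between the 2 Ncoa6-KO libraries.

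The microsomal enzymes differed from each other. Mgst1, a membrane transferase and peroxidase of the endoplasmic reticulum and mitochondria, lies on chromosome 6 at 138140316 to 138156755 on the + strand. With medium it was at 1586 and 1299 normalized counts against 2011 and 1546, so the genotypes overlapped, and with LPS + MSU at 1329 and 1244 against 1883 and 1626, where they did not. Its log2 fold changes were 0.30 ± 0.14 and 0.45 ± 0.14. Mgst2, which can also make leukotriene C4, lies on chromosome 3 at 51660360 to 51682677 on the + strand. It was at 63.0 and 90.3 against 69.5 and 56.2 with medium and at 70.7 and 89.5 against 79.7 and 64.4 with LPS + MSU, with log2 fold changes of -0.28 ± 0.25 and -0.15 ± 0.27. Gm37261 overlaps Mgst2 on the same strand, with a mean of 5.03 normalized counts. Gstt1, the theta class gene, had log2 fold changes of -0.07 ± 0.48 and -0.13 ± 0.35 between the genotypes, from counts that were low with medium.

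**Figure D2:**
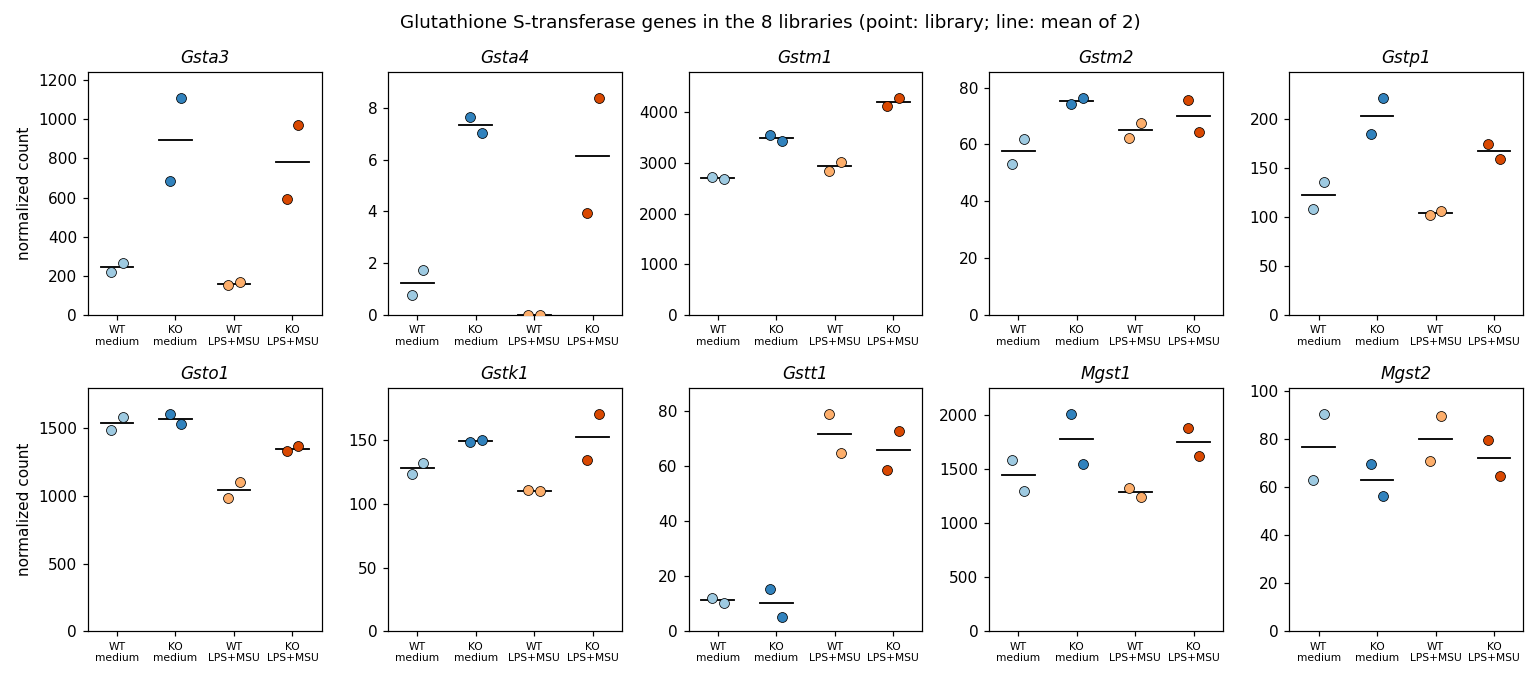
Normalized counts (vertical axis, from 0, a scale of its own for each gene) of the 10 genes in the 4 groups. Each point is a library and each line the mean of 2. The Ncoa6-KO libraries of Gsta3 lay at 593 to 1110 and the Ncoa6-sufficient ones at 151 to 266, while Gstt1 separated by culture condition and not by genotype.

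Counted over the list, 1 of the 10 genes was among the genes called higher in Ncoa6-KO BMDMs with medium (Gsta3), beside 0.573% of all genes tested, and 0 were called lower, beside 1.30%. With LPS + MSU, 2 were called higher (Gsta3 and Gstm1), beside 1.96%, and 0 lower, beside 1.63%. Since the list was made with these comparisons known, nothing is read from these counts. The genotypes did not overlap, with Ncoa6-KO higher, for 6 of the 10 genes with medium and for 7 with LPS + MSU, beside 18.6% and 24.7% of all genes, and for none with Ncoa6-KO lower, beside 24.5% and 22.7%. The median log2 fold change of the 10 genes was 0.34 with medium and 0.46 with LPS + MSU, beside -0.03 and 0.00 over all genes tested.

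**Figure D3:**
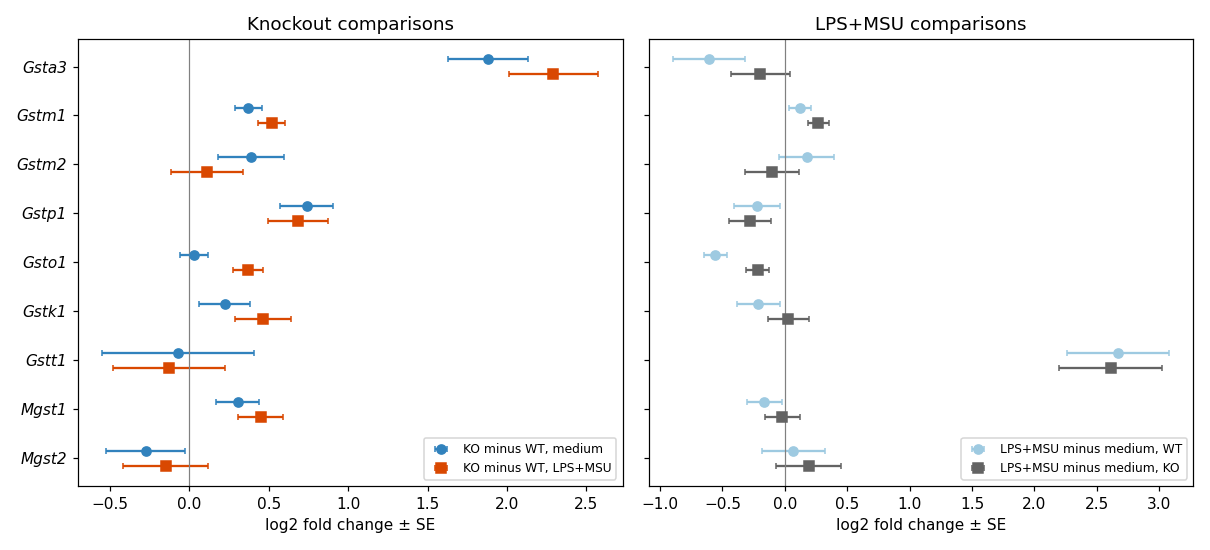
Log2 fold changes with their standard errors (horizontal axis) of 9 of the 10 genes, for Ncoa6-KO over Ncoa6-sufficient BMDMs on the left and for LPS + MSU over medium on the right. Gsta4 is left out for its low counts. Of these 9, Gsta3 had the largest genotype difference, at 1.88 and 2.29, and Gstt1 the largest difference between culture conditions, at 2.67 and 2.61.

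The second question was how LPS + MSU changed the same genes in each genotype. Gstt1, which dehalogenates small molecules, differed most among the 9 genes with more than a few counts. It lies on chromosome 10 at 75783813 to 75798584 on the - strand. In Ncoa6-sufficient BMDMs it went from 12 and 10.3 normalized counts with medium to 79.0 and 64.7, and in Ncoa6-KO BMDMs from 15.3 and 5.27 to 58.8 and 72.8. The culture conditions did not overlap in either genotype. The log2 fold changes of LPS + MSU over medium were 2.67 ± 0.41 and 2.61 ± 0.41, or 6.35-fold and 6.11-fold. The value in Ncoa6-KO BMDMs was 3.61 ± 0.50 without the first and 2.09 ± 0.40 without the second library with medium. No 100-base window of its transcripts occurred in another gene.

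The other genes with more than a few counts differed by less, and the direction of Gstm1 and Mgst2 in both genotypes, of Gstm2 in Ncoa6-sufficient and of Gstk1 in Ncoa6-KO BMDMs depended on the scaling. Mgst1 in Ncoa6-KO BMDMs had -0.02 ± 0.14, and -0.65 to 0.04 over the alternatives apart from left-out libraries, so its direction was not fixed either. TMM factors were 1.23 to 1.29 in the libraries with medium and 0.766 to 0.829 in those with LPS + MSU. With total counts in place of TMM the median log2 fold change of all genes went from -0.12 to -0.78 in Ncoa6-sufficient and from -0.07 to -0.71 in Ncoa6-KO BMDMs. On the TMM scale Gsto1 was lower with LPS + MSU in Ncoa6-sufficient BMDMs, by a log2 fold change of -0.56 ± 0.09, and had -0.22 ± 0.09 in Ncoa6-KO BMDMs, with no overlap of the culture conditions in either genotype. Gsta3 had -0.61 ± 0.29 in Ncoa6-sufficient BMDMs, where the libraries did not overlap, and -0.20 ± 0.24 in Ncoa6-KO BMDMs, where they did. Gstm1 had 0.12 ± 0.09 and 0.27 ± 0.09 on the TMM scale but -0.55 ± 0.09 and -0.37 ± 0.09 with total counts. Its value in Ncoa6-KO BMDMs, which was among the calls, was 0.24 ± 0.10 and not called without the second library with medium, and 0.28 ± 0.11 and 0.24 ± 0.11 and not called without the first or the second library with LPS + MSU.

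Gstp1 had -0.22 ± 0.19 and -0.28 ± 0.17, and Gstk1, Mgst1, Mgst2 and Gstm2 lay between -0.21 and 0.19 in both genotypes on the TMM scale. With total counts each of these 5 genes was below 0 in both genotypes, at -0.44 to -0.91, and Gstt1 remained above 0, at 2.00 and 1.99. Of the 10 genes, 1 was called higher (Gstt1) and 1 lower (Gsto1) with LPS + MSU in Ncoa6-sufficient BMDMs, beside 24.7% and 30.5% of all genes tested, and 2 were called higher (Gstm1 and Gstt1) and 0 lower in Ncoa6-KO BMDMs, beside 25.2% and 27.9%. That is 2 called genes in each genotype, where 55.2% and 53.1% of all genes were called, and nothing is read from it. The culture conditions did not overlap, with LPS + MSU higher, for 3 and 2 of the 10 genes, beside 35.1% and 35.4% of all genes, and with LPS + MSU lower for 5 and 2, beside 43.5% and 41.1%.

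The difference between the knockout effects with LPS + MSU and with medium was 0.34 ± 0.13 for Gsto1, 0.41 ± 0.38 for Gsta3, 0.15 ± 0.12 for Gstm1, 0.24 ± 0.24 for Gstk1 and 0.15 ± 0.20 for Mgst1 on the log2 scale. For Gstp1 and Gstt1 it was -0.06 ± 0.25 and -0.06 ± 0.60. None of the 10 genes, and 0 of all genes tested (0%), passed an adjusted p of 0.05 in edgeR, where 1045 genes had an unadjusted p under 0.05, 1 of them on the list; DESeq2 called 43 genes, none of them on the list.

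The relatives that were not on the list put these values in context. Of 26 further genes of the family, 24 had a row and 18 were tested; Gsta1, Gsta2, Gstm3, Gstm6, Gstp2 and Gstp3 were under the filter. None was called between the genotypes with medium by edgeR or DESeq2, where 4 had an unadjusted p under 0.05 in edgeR, and 1 was called with LPS + MSU, beside 1.88% and 3.59% of all genes. That gene was Ltc4s, the MAPEG enzyme that makes leukotriene C4 from glutathione and leukotriene A4. With LPS + MSU it rose from 58.2 and 53.7 normalized counts in Ncoa6-sufficient to 119 and 150 in Ncoa6-KO BMDMs, a log2 fold change of 1.26 ± 0.24 (edgeR, adjusted p = 0.0211). The call was lost without the first or second Ncoa6-sufficient library (adjusted p = 0.145 and 0.0943) or the second Ncoa6-KO library with LPS + MSU (0.181), within a range of 1.43e-05 to 0.181 over the alternatives. With medium it was at 63.5 and 80.0 against 84.1 and 113 (adjusted p = 0.436). The median log2 fold change of these relatives was 0.06 with medium and 0.16 with LPS + MSU.

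Gstm5, another mu class gene, had log2 fold changes of 0.56 ± 0.17 and 0.54 ± 0.18 between the genotypes (adjusted p = 0.164 and 0.151), and Mgst3 had 0.16 ± 0.09 and 0.38 ± 0.10 (adjusted p = 0.545 and 0.0602). The theta class genes beside Gstt1 on chromosome 10, Gstt2 and Gstt3, had log2 fold changes of 0.09 and 0.12 and of 0.08 and -0.02. Gstm5, Mgst3 and Gstt2 were chosen after their values were seen.

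With LPS + MSU, 3 of the 18 relatives rose and 4 fell in each genotype (edgeR, adjusted p under 0.05), beside 24.7% and 30.5% of all genes in Ncoa6-sufficient and 25.2% and 27.9% in Ncoa6-KO BMDMs. Ptges, the inducible prostaglandin E synthase of the MAPEG proteins, rose by 3.76 ± 0.12 and 4.22 ± 0.13 on the log2 scale (adjusted p = 1.32e-09 and 8.21e-10), from 109 and 105 to 1442 and 1452 normalized counts in Ncoa6-sufficient BMDMs. Clic4, a chloride channel protein with a transferase fold, rose by 3.02 ± 0.15 and 3.01 ± 0.15 (1.98e-08 and 2.06e-08). Both were above 0 with total counts too. Gstt4, a neighbour of Gstt1, was named after its values were seen: it had 0 and 1 counts with medium in each genotype and 58 and 32 counts in sum with LPS + MSU, ratios of 99.9 (95% interval 17.2 to 4015) and 55.7 (9.31 to 2269).

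Among the relatives that fell, Hpgds, the sigma class prostaglandin D synthase, went from 6515 and 6920 to 4561 and 4929 normalized counts in Ncoa6-sufficient BMDMs and from 6823 and 6604 to 4183 and 4305 in Ncoa6-KO BMDMs. Its log2 fold changes were -0.50 ± 0.09 and -0.66 ± 0.09 (edgeR, adjusted p = 0.000733 and 0.000102). Gstz1, the zeta class enzyme of tyrosine breakdown, fell by 0.54 ± 0.11 and 0.43 ± 0.11 (adjusted p = 0.00189 and 0.00691), and Gstt3 fell by 0.68 ± 0.19 and 0.78 ± 0.18 (0.00874 and 0.00407). Gstm4 fell by 0.56 ± 0.19 and 0.62 ± 0.19 (0.0309 and 0.0192). DESeq2 called 5 of the relatives in each genotype, without Gstt3 and Gstm4 in Ncoa6-sufficient (adjusted p = 0.0522 and 0.151) and without Gstz1 and Gstm4 in Ncoa6-KO BMDMs (0.055 and 0.0648). Gstt3 without the second Ncoa6-sufficient library with LPS + MSU, and Gstm4 without either Ncoa6-sufficient library with medium, the second with LPS + MSU or either Ncoa6-KO library with LPS + MSU, were not called in Ncoa6-sufficient BMDMs, with adjusted p of 0.0724 and of 0.0511 to 0.24. In Ncoa6-KO BMDMs Gstm4 was not called without the first library with medium (0.181) or the second with LPS + MSU (0.11).

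The enzymes that supply glutathione were described next, since the transferases depend on it. Of 12 tested genes of glutathione synthesis and turnover, 0 were called by edgeR between the genotypes with medium (3 at an unadjusted p under 0.05). With LPS + MSU, 2 were called higher in Ncoa6-KO than in Ncoa6-sufficient BMDMs. These were Gclc and Gclm, the catalytic and modifier subunits of glutamate-cysteine ligase, the rate-limiting enzyme. Gclc was at 230 and 286 normalized counts in Ncoa6-sufficient against 510 and 751 in Ncoa6-KO BMDMs, a log2 fold change of 1.29 ± 0.22 (edgeR, adjusted p = 0.0133). Gclm was at 1358 and 1738 against 2481 and 3382, or 0.92 ± 0.18 (adjusted p = 0.0203). With medium the values were 0.39 ± 0.19 for Gclc and 0.40 ± 0.17 for Gclm (0.43 and 0.347). In Ncoa6-sufficient BMDMs both fell with LPS + MSU, by 2.05 ± 0.22 and 0.82 ± 0.18 on the log2 scale (9.51e-06 and 0.00202), and in Ncoa6-KO BMDMs Gclc fell by 1.16 ± 0.20 (0.000466) while Gclm had -0.30 ± 0.17 (0.167). The median log2 fold change of the list between the genotypes was -0.09 with medium and 0.24 with LPS + MSU. Over all genes tested, beside which this list and those below stand, the medians were -0.03 and 0.00. Of all genes, 0.573% were called higher and 1.30% lower in Ncoa6-KO BMDMs with medium, and 1.96% and 1.63% with LPS + MSU.

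Of 14 tested genes of glutathione reduction and glutathione-using enzymes, such as Gsr, the glutathione peroxidases and the glutaredoxins, 0 were called by edgeR in either knockout comparison (2 and 6 at an unadjusted p under 0.05), with median log2 fold changes of 0.06 and 0.21. Of 15 tested genes listed under conjugate export and the mercapturate steps, 1 was called lower in Ncoa6-KO BMDMs with medium. With LPS + MSU, 1 was called higher and 1 lower in Ncoa6-KO BMDMs. Dpep2, a dipeptidase that cleaves leukotriene D4, was at 3302 and 3201 normalized counts against 2500 and 2215 with medium (-0.46 ± 0.09, edgeR, adjusted p = 0.0371) and had -0.38 ± 0.09 with LPS + MSU (0.0543). Ptgr1, which reduces reactive alkenals, was at 1085 and 1277 against 1746 and 1922 with LPS + MSU (0.64 ± 0.10, edgeR, adjusted p = 0.0104). Abcg2, an efflux pump, was at 409 and 398 against 284 and 266 (-0.55 ± 0.12, adjusted p = 0.0294). The main glutathione conjugate exporter Abcc1 had 0.11 ± 0.12 and 0.27 ± 0.12 between the genotypes (0.794 and 0.301).

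Among 12 tested regulators, 0 were called by edgeR with medium (1 at an unadjusted p under 0.05) and 1 rose with LPS + MSU: Mafg, a small MAF partner of NRF2, at 1685 and 1940 normalized counts against 2369 and 3051 (0.58 ± 0.12, edgeR, adjusted p = 0.0316). Nfe2l2, which encodes NRF2, had 0.03 ± 0.10 and 0.29 ± 0.10 (0.96 and 0.151), and its inhibitor Keap1 had -0.26 ± 0.11 and -0.08 ± 0.10 (0.329 and 0.758). Of 15 NRF2 targets outside glutathione, 1 was called higher in Ncoa6-KO BMDMs with medium and 3 with LPS + MSU. Srxn1, which repairs oxidized peroxiredoxins, was at 2175 and 3086 against 5447 and 7698 with LPS + MSU (1.32 ± 0.18, adjusted p = 0.00517), Prdx1 had 0.49 ± 0.12 (0.0432), and Me1, which makes NADPH, had 0.58 ± 0.13 with medium and 0.80 ± 0.13 with LPS + MSU (0.0468 and 0.0112). Their median was 0.01 with medium and 0.30 with LPS + MSU. Nqo1 and Hmox1, classical targets, were not called (adjusted p = 0.126 and 0.0634 with LPS + MSU). Abcc1, Nfe2l2, Keap1, Nqo1 and Hmox1 were named after their values were seen.

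The pathway calls with LPS + MSU depended on single libraries. Leaving out the first Ncoa6-sufficient library or the second Ncoa6-KO library with LPS + MSU left 0 of the 8, at log2 fold changes of 1.08 and 1.05 for Srxn1 (edgeR, adjusted p = 0.0512 and 0.0553) and of 1.13 and 0.98 for Gclc (0.146 and 0.143), and calls over all genes went from 632 to 60 and 58. Without either Ncoa6-sufficient library with medium, or the second with LPS + MSU, 5 pathway genes were called. With medium, the calls of Dpep2 and Me1 were both lost without either Ncoa6-sufficient library with medium, the second Ncoa6-KO library with medium or either Ncoa6-KO library with LPS + MSU, that of Dpep2 also without either Ncoa6-sufficient library with LPS + MSU, and calls over all genes went from 331 to 22 without the first Ncoa6-sufficient library.

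**Figure D4:**
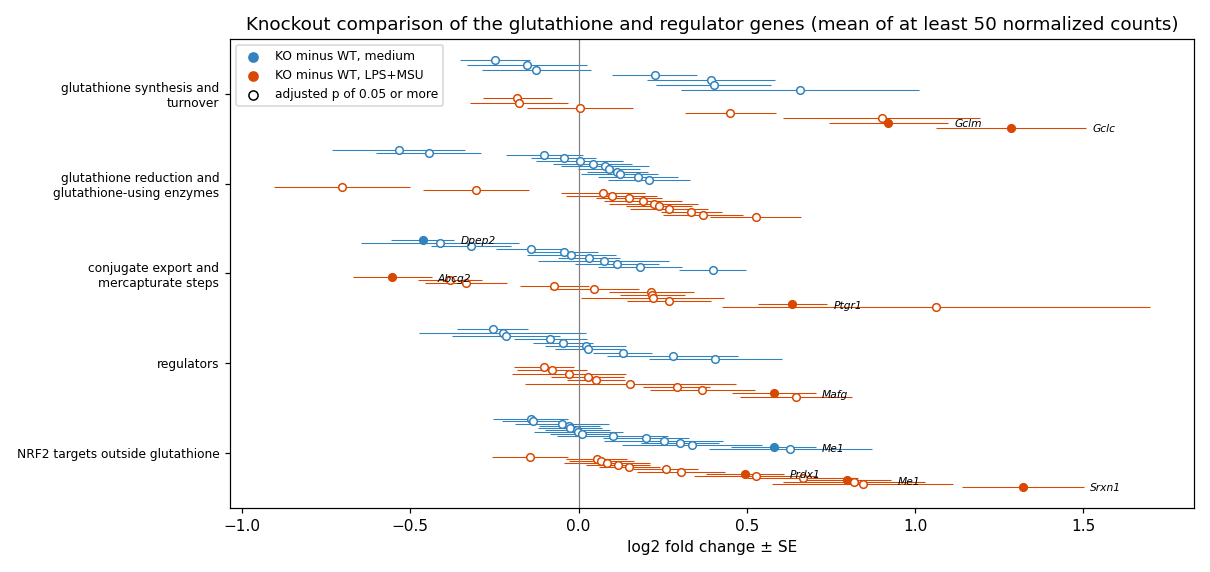
Log2 fold changes with standard errors (horizontal axis) of Ncoa6-KO over Ncoa6-sufficient BMDMs for the genes of 5 lists whose mean reached 50 normalized counts, with medium in blue and with LPS + MSU in orange. Filled points passed an adjusted p of 0.05 and carry their names. With LPS + MSU 7 of the 8 called genes were higher in Ncoa6-KO BMDMs, and Abcg2 was lower, beside 345 higher among the 632 calls over all genes.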

How the data were processed

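The authors aligned stranded poly(A) reads with STAR 2.7.3a to GRCm38 and quantified genes with RSEM 1.3.3, per the labels. Their deposited table holds expected counts without any normalization. These were rounded. A gene entered the tests if its counts over all 8 libraries summed to at least 10, as in the study's methods. edgeR 4.0.16 (R 4.3.3) fitted all groups together by quasi-likelihood with TMM scaling, leaving 4 residual degrees of freedom, and p-values were adjusted over 17625 genes (Benjamini-Hochberg, calls under 0.05). They measure the spread between 2 mice a group, where an exact permutation test cannot go below p = 0.333. SE is the absolute log2 fold change over the square root of F. Levels per length use the union of annotated exons on GRCm38, and promoters are RefSeq's. Of 50615 genes, 50295 had a symbol. The 10 genes and the other lists were chosen with earlier results of these data known. Named genes outside the list had a mean of at least 50 normalized counts and a call, up to 8 a list, with exceptions stated. Alternatives were DESeq2 1.42.0, its size factors in edgeR, filterByExpr, no filter, limma-voom (limma 3.58.1), a replicate block, a fit of just the 4 libraries at issue, each library left out in turn, class sums, the longest transcript as length and, chosen after seeing the data, total counts. The code was tested on simulated data.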

Additional observations from a re-analysis of the deposited data

Results flagged for a closer look

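Of the family genes and the pathway genes named above for a call, 3 moved in opposite directions without overlap of their libraries. For Ltc4s and Srxn1 this was the response to LPS + MSU, compared between the genotypes. For Ptges2 it was the knockout effect, compared between the culture conditions. Other pathway genes are not part of this count, and the share of all genes with such a pattern was not computed. Non-overlap in a given direction of a single comparison occurred in 18.6% to 43.5% of all genes. None of the 3 differences passed an adjusted p of 0.05 in edgeR (0.803 for Ltc4s, 0.437 for Srxn1 and 0.891 for Ptges2). Ltc4s was lower with LPS + MSU in both Ncoa6-sufficient libraries and higher in both Ncoa6-KO libraries, and the responses differed by 0.81 on the log2 scale, although the Ncoa6-KO response was -0.19 with total counts in place of TMM. Srxn1 had a difference of 1.07, which was called with DESeq2 (adjusted p = 0.0161), with no filter (5.55e-08) and with the replicate block across groups (0.0217) or within genotypes (3.9e-05), and its Ncoa6-KO response was -0.10 with total counts. The knockout effect on Ptges2, a membrane-associated prostaglandin E synthase, was below 0 with medium and above 0 with LPS + MSU, a difference of 0.33.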

How the results depend on the processing

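With 2 libraries a group, single libraries decide many knockout calls. Of the 10 genes, 1 was called with medium in the knockout comparison, against 2 with DESeq2, its size factors or total counts, 3 with no filter, limma-voom or the replicate block, and 0 to 1 without a library; with LPS + MSU 2 were called, against 5 with no filter or the replicate block and 1 to 2 without a library. For LPS + MSU over medium the 2 and 2 called became 7 and 8 with total counts, and the second became 1 with no filter and 1 to 2 without a library. The 0 and 1 called relatives became 2 and 2 with no filter, 1 and 2 with the replicate block, the second 2 with total counts and 0 to 2 without a library, and their 7 and 7 culture calls became 17 and 14 with total counts. The 2 pathway calls with medium became 4 with DESeq2, 1 with filterByExpr or total counts, 9 with no filter, 8 with the replicate block, 0 with only the 4 libraries compared and 0 to 2 without a library, and the 8 with LPS + MSU became 20, 19 with the replicate block, 5 with the 4 libraries and 0 to 12. All genes called went from 331 and 632 to 1152 and 1611 with no filter, 1023 and 1532 with the replicate block, 347 with the 4 libraries for the second, and 22 to 372 and 58 to 761 without a library. Interaction calls went from 0 to 43 (DESeq2), 269 (no filter), 86 and 444 (replicate block across groups and within genotypes) and 0 to 23 without a library; pathway genes among them went from 0 to 1, 4, 2 and 7.

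Directions reversed with total counts for LPS + MSU over medium of Gstm1 in Ncoa6-KO (-0.37), Dpep2 in Ncoa6-sufficient (-0.082) and Srxn1 in Ncoa6-KO BMDMs (-0.10). The sum of the 4 Gstt genes gave -0.093 in Ncoa6-KO BMDMs, but Gstt1 held just 10.4% of it, so this is not a value of Gstt1. With the longest transcript as length, Gstm1 held 29.3%, 34.8%, 31.1% and 36.3% of the family's level (Ncoa6-sufficient with medium and LPS + MSU, Ncoa6-KO with both). To look for pairing, the log2 difference between the first and the second library of each group was taken for 11219 genes. Between the culture conditions of a genotype, these differences correlated at 0.283 (Ncoa6-sufficient) and 0.353 (Ncoa6-KO). For the other pairs of groups the correlations were 0.0418 to 0.193. The 2 higher values do not establish pairs, so the replicate block is an alternative only. The causes were not tested.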
